A study of Mus musculus with 36 samples.

Results

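Genes of the liver sinusoidal endothelium, of other capillary endothelium and of the signals that endothelium sends to hepatocytes were followed through liver regeneration in young and old mice. The set held 38 genes, chosen by symbol from 21955 symbols listed in each library, with earlier results of these data known. Of these, 37 were among the 13436 genes that passed the filter on low counts. The apelin gene Apln, which encodes a secreted endothelial peptide, had 0 to 9 counts per library and was not tested. The genes were read in 6 role groups: 10 sinusoidal identity and scavenger genes, 8 receptors with a receptor phosphatase, 6 junction and pan-endothelial genes, 3 transcription factors, 6 secreted angiocrine genes and 5 capillary and sprouting genes.

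Total RNA came from frozen liver of C57BL/6JN mice, an inbred laboratory strain, and was depleted of ribosomal RNA before sequencing. Young mice were 4 months old and old mice 18 months old, and both ages were sampled before regeneration and at time points labelled 48, 72, 96, 120 and 240. No unit is stated for these labels, which also do not say how regeneration was induced and record no transgene, deletion or drug in either age. Each of the 12 groups held 3 libraries, described by the submitters as biological replicates. Per the labels, young samples received spike-in mix 1 and old samples spike-in mix 2. The count tables held 0 spike-in rows, so the values are shares of each library's RNA and not amounts per cell.

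Liver sinusoids are lined by a specialised endothelium without a continuous basement membrane, pierced by open pores called fenestrae and equipped with scavenger receptors that clear waste molecules from blood. Its cells carry receptors for vascular endothelial growth factor (VEGF) and angiopoietins, and they release Wnt ligands, R-spondin and bone morphogenetic proteins that act on neighbouring hepatocytes, which is called angiocrine signalling. When sinusoids lose this specialisation they can take on features of ordinary capillaries, among them Cd34 and Plvap, while growing vessel tips express Esm1 and Apln. In whole liver, fewer endothelial cells and less RNA of a gene per endothelial cell cannot be told apart.

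Levels are depth-scaled counts (CPM, with each library's total adjusted by the TMM method). The libraries held 2328230 to 6034450 counts with a median of 4439170, so that 3 counts were worth 0.490 to 1.29 CPM. Differences are log2 fold changes from edgeR's quasi-likelihood F test over all genes, and genes with an adjusted p under 0.05 are named as called. The standard error (SE) after each ± was derived as the absolute log2 fold change divided by the square root of F. The test itself gives no SE, and for genes with few counts the derived value is only approximate. Hepatocyte markers summed to 62669 to 69193 CPM in the young libraries and 50192 to 63927 CPM in the old libraries before regeneration, and 20 of 20 cell cycle genes rose in young livers at 48. Of the 36 libraries, 1 stood apart: old 48 replicate 2 differed from its replicates by a chi-square per degree of freedom of 61.7 and 70.9, against 5.09 to 32.8 for the other replicate pairs. Among the 37 members it was the lowest of all libraries for 8 and the highest for 8, or 21.6% each, beside 15.7% and 15.4% of all genes. For the members alone, old 120 replicate 2 also stood out. Their deviations from the group mean had an SD of 0.825 in old 48 replicate 2 and 0.615 in old 120 replicate 2. The next highest was 0.488, in old 48 replicate 3. Transcripts of Y-linked genes were present in 12 libraries, 1 in each group, at 177 to 321 CPM, and at most 0.212 CPM in the other 24. The X-linked RNA Xist divided the same libraries, at 0 to 3.12 CPM in the 12 and 2570 to 4214 CPM in the 24. The labels do not name this split and give no sex.

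Per kilobase of exon, the levels before regeneration spanned a wide range. The highest median over the 6 libraries before was that of Plvap, which encodes the diaphragm protein of fenestrae and caveolae, at 44.2 CPM per kilobase. The receptor phosphatase Ptprb followed at 33.3, the endocytic recycling protein Ehd3 at 24.5, the co-receptor endoglin (Eng) at 23.8 and the atypical chemokine receptor Gpr182 at 20.7 CPM per kilobase. At the lower end stood the pericentral Wnt ligand Wnt9b at 0.533, von Willebrand factor (Vwf) at 0.497, endomucin (Emcn) at 0.385, Cd34 at 0.252 and Apln at 0.0693 CPM per kilobase. The ranges over the 6 libraries of Plvap and Ptprb overlapped, as did those of Ehd3, Eng and Gpr182. Exons of 11 members overlap exons of a gene on the opposite strand, among them Stab1 with Nt5dc2, Nos3 with Atg9b, Eng with Fpgs and Rspo3 with a predicted gene. The strand setting of the counting is not given in the sources used here, so reads of these pairs cannot be told apart.

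In young livers, members that changed early mostly fell, led by the sinusoidal gene Oit3 and the receptor phosphatase Ptprb, while Plvap, Wnt9b and later Cd34 rose. At 48, 9 of 37 members were called, 7 lower and 2 higher, where 21.9% of all genes tested were called, 9.79% lower and 12.2% higher. The members' share, 24.3%, was close to that background. Of the 37, 30 had a log2 fold change below 0, and their median was -0.34, beside -0.01 over all genes. At 72, 12 members were called, 11 lower and 1 higher, against 17.4% of all genes called, 8.21% lower and 9.21% higher, and 25 of 37 lay below 0 with a median of -0.34. At 96 only Cd34 was called, higher, where 1.4% of all genes were called and 0.662% were called higher. At 120 and 240 edgeR called 0 members, against 0.581% and 0.246% of all genes; 6 and 7 members had an unadjusted p under 0.05, and DESeq2 called 1 and 0.

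The number of young calls depended on single libraries. At 48 it was 4, 3, 4 and 4 without young before replicate 1, young before replicate 2, young 48 replicate 1 and young 48 replicate 3. At 72 it was 7 without young before replicate 2, 4 without young 72 replicate 1 and 5 without young 72 replicate 2. At 96 it was 0 without any 1 of the young before libraries or of young 96 replicates 1 and 2, and 2 and 3 without old 48 replicates 1 and 2. Scaling by total counts in place of TMM moved the median of all genes from 0.01 at each time to 0.21 at 72, 0.13 at 96 and 0.10 at 120, and gave 3 lower and 2 higher members at 48, 5 lower and 2 higher at 72, and 1 higher at 120. Under that scaling the members' median was 0.01 at 96 and at 120.

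In old livers the called members also mostly fell, among them the scavenger genes Fcgr2b and Oit3, the receptors Kdr and Robo4 and the tight junction gene Cldn5, while Plvap rose. At 48, 13 of 37 members were called, 10 lower and 3 higher, against 24.1% of all genes, 12% lower and 12.1% higher. At 72, 9 were called, 8 lower and 1 higher, against 12.4% of all genes, 5.81% lower and 6.54% higher. At 96, 3 members were called lower, where 6.82% of all genes were called and 3.07% were called lower. At 120, 4 members were called lower, where 3.87% of all genes were called and 2.02% were called lower. At 240, edgeR called 0 members, against 0.156% of all genes; 4 had an unadjusted p under 0.05, and DESeq2 called 0. The members' median log2 fold change was -0.26 at 48, -0.37 at 72, -0.29 at 96, -0.35 at 120 and -0.16 at 240.

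Without old 48 replicate 2, the old calls at 48 were 8, of which 1 was higher and 7 lower, and 16.8% of all genes were called. With the model restricted to the old libraries before and at 48, 36 members were tested and only the fall of Esm1 stayed called. The other old calls at 48 were lost there, among them Fcgr2b, Dnase1l3, F8, Kdr and Cldn5. Deviations of all genes from their group mean had a mean SD of 0.482 in old 48 and 0.281 to 0.364 in the other groups. The part of this spread in the lost calls was not tested. Old calls at 48 numbered 6 without old before replicate 3. At 72 they numbered 3 without old before replicate 2, 1 without old before replicate 3, and 3 without old 72 replicate 1 or replicate 3. At 96 they numbered 5 without old before replicate 1 or old 48 replicate 2, and 1 without old before replicate 3 or old 96 replicate 1. At 120 they numbered 7 without old 48 replicate 2, 0 without old before replicate 3, and 1 without old before replicate 2, old 120 replicate 1 or old 120 replicate 2. Total-count scaling gave 3 lower and 1 higher at 72 and 2 lower and 1 higher at 96.

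**Figure D1:**
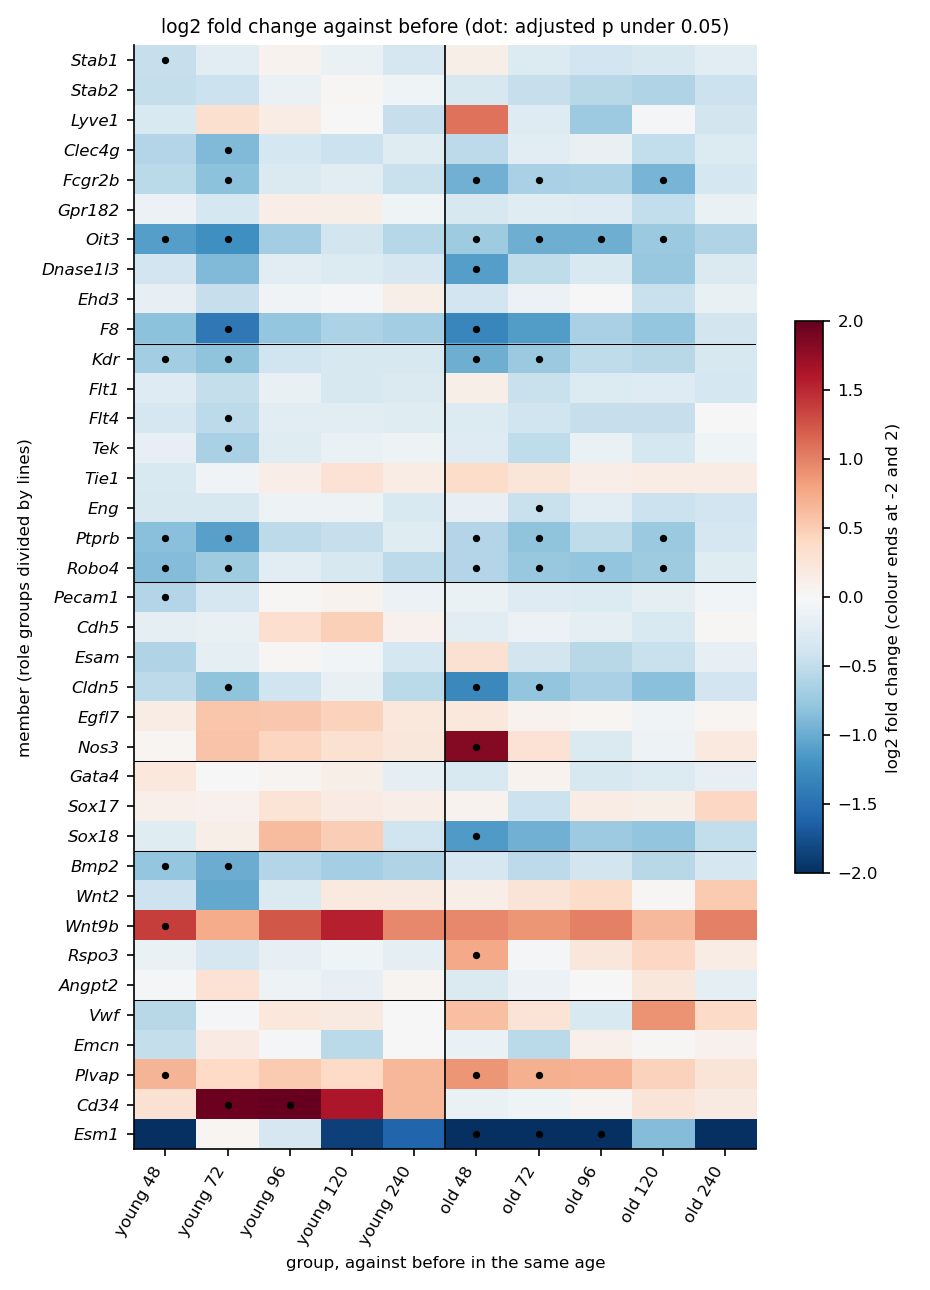
Log2 fold change against the libraries before regeneration for the 37 tested members (rows, by role group) at the 5 later time labels in young and old livers (columns), from edgeR, with a dot where the adjusted p was under 0.05; the colour scale ends at -2 and 2. Most dots lie at 48 and 72, where Oit3, Ptprb, Robo4 and Kdr were lower in both ages, and Plvap was higher in both ages at 48.

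Among the sinusoidal identity and scavenger genes, Oit3, which encodes a protein that is enriched in liver sinusoidal endothelium (chr10:59422958-59441778, minus strand, GRCm38), fell at both early times in both ages. Before regeneration its levels were 49.3, 41.8 and 45.0 CPM in the 3 young libraries. They were 18.8, 27.9 and 16.8 CPM at 48 and 19.5, 21.9 and 17.1 CPM at 72, all below every library before. The log2 fold change was -1.11 ± 0.20 at 48, a 2.15-fold lower level (adjusted p = 0.000175), and -1.22 ± 0.20 at 72, a 2.33-fold lower level (adjusted p = 0.000322). In old livers Oit3 stood at 37.8, 36.6 and 45.4 CPM before, 32.5, 18.2 and 22.9 CPM at 48, 19.7, 24.8 and 16.5 CPM at 72, 21.5, 16.7 and 22.8 CPM at 96 and 20.9, 22.8 and 27.8 CPM at 120. None of these later old libraries reached the lowest old library before. The old differences were -0.70 ± 0.20 (adjusted p = 0.0114), -0.98 ± 0.20 (0.00195), -0.98 ± 0.21 (0.00442) and -0.74 ± 0.20 (0.0377) at 48, 72, 96 and 120. The young calls at 48 and 72 and the old calls at 72 and 96 held in all 46 alternatives tried. The old call at 120 was lost in 7 of 46, among them without old before replicate 2 or 3 and without old 120 replicate 1 or 2. The old call at 48 was lost without old 48 replicate 2, at -0.50 ± 0.21 (adjusted p = 0.0979), and also without old before replicate 3.

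Fcgr2b encodes an inhibitory receptor for the Fc part of antibodies, with which sinusoidal endothelium removes small immune complexes. It stood at 48.1, 68.4 and 96.7 CPM in old livers before, 43.6, 32.8 and 33.3 CPM at 48 and 38.8, 33.7 and 39.5 CPM at 120. Every old library at 48 and 120 lay below every old library before, and the differences were -0.96 ± 0.21 (adjusted p = 0.00162) and -0.93 ± 0.21 (adjusted p = 0.0122). At 72 the old difference was -0.66 ± 0.21 (adjusted p = 0.0371) and the groups overlapped. Old before replicate 3 held the highest level of all 36 libraries, and the old calls at 72 and 120 were lost without it, as well as without old before replicate 2, old 72 replicate 1 or old 72 replicate 3 for 72, and without old 120 replicate 2 for 120. In young livers Fcgr2b was 53.3, 66.2 and 65.6 CPM before and 29.6, 40.3 and 35.1 CPM at 72, without overlap, a difference of -0.82 ± 0.21 (adjusted p = 0.00808) that was lost without young 72 replicate 1.

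F8, the gene for coagulation factor VIII, whose main source in liver is the endothelium, was called at 72 in young and at 48 in old livers. Young libraries held 129, 133 and 195 CPM before and 53.7, 52.7 and 62.6 CPM at 72, a 2.7-fold lower level (-1.43 ± 0.41, adjusted p = 0.0154). Old libraries held 115, 123 and 144 CPM before and 82.5, 6.68 and 65.2 CPM at 48 (-1.31 ± 0.40, adjusted p = 0.0200). The second of the old libraries at 48 was the lowest of all 36, and without it the difference was -0.76 ± 0.21 (adjusted p = 0.0157). The young call was lost without young before replicate 3, young 72 replicate 1 or young 72 replicate 2, and the old call without old before replicate 3.

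Dnase1l3 encodes a secreted nuclease that digests DNA in blood. Old libraries held 69.0, 81.1 and 88.5 CPM before and 63.6, 7.90 and 39.7 CPM at 48, a difference of -1.11 ± 0.32 (adjusted p = 0.0143) that was -0.60 ± 0.17 (adjusted p = 0.0190) without the second library. The old Dnase1l3 call was lost without old before replicate 3. In young livers Dnase1l3 was 80.5, 82.8 and 90.1 CPM before and 45.7, 45.7 and 45.8 CPM at 72, without overlap. That young fall was not called with all libraries. Without old 48 replicate 2 it was called at 72 and over the young time course, so the fall is not particular to old livers. Clec4g, a C-type lectin of sinusoidal endothelium, fell in young livers at 72, from 45.6, 56.5 and 48.7 CPM to 27.0, 26.7 and 28.0 CPM (-0.88 ± 0.26, adjusted p = 0.0196). The Clec4g call was lost in 4 of 46 alternatives, among them without young before replicate 2 and without young 72 replicate 1 or 2. The scavenger receptor Stab1, one of the stabilins that take up hyaluronan and modified proteins, was 150.2, 178 and 134 CPM in young libraries before and 112, 122 and 102 CPM at 48. That was the smallest called fall of the group, at -0.46 ± 0.16 (adjusted p = 0.0439), and it was lost in 17 of 46 alternatives.

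The scavenger group's Stab2, Lyve1, Gpr182 and Ehd3 were called in no comparison of time or age. The stabilin Stab2 ranged over 29.2 to 94.0 CPM, median 58.4, and Gpr182 over 48.0 to 112 CPM, median 76.5. The hyaluronan receptor Lyve1 ranged over 14.1 to 140.4 CPM, median 29.2, and its highest and lowest libraries were both in the old 48 group, at 52.9, 140.4 and 14.1 CPM. Ehd3 ranged over 31.6 to 193 CPM, median 152, with its lowest value in old 48 replicate 2.

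**Figure D2:**
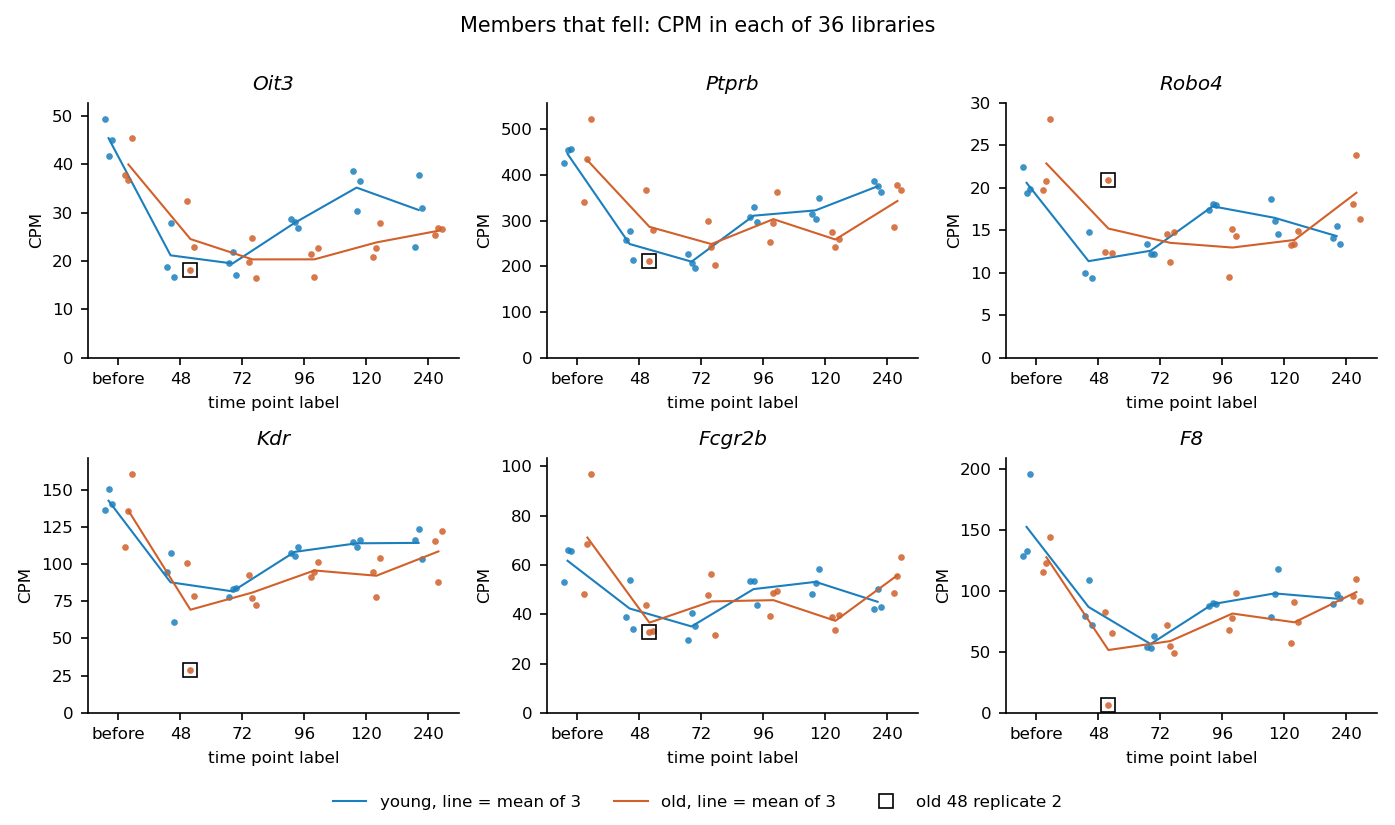
Levels in CPM (vertical axis, from 0) of Oit3, Ptprb, Robo4, Kdr, Fcgr2b and F8 in each of the 36 libraries by time label (horizontal axis), young in blue and old in orange, with lines through the means of 3 libraries and an open square for old 48 replicate 2. For Oit3, every library of either age at 48 and 72 lies below every library before regeneration of the same age.

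Of the 8 receptor genes, 3 fell in young livers at 48 and 5 at 72, and in old livers 3 fell at 48 and 4 at 72. Ptprb, Robo4 and Kdr were common to these 4 counts. Of all genes, 9.79% and 8.21% were called lower in young livers and 12% and 5.81% in old livers at 48 and 72. Ptprb (chr10:116275523-116389535, plus strand) encodes the endothelial receptor phosphatase that removes phosphate from the angiopoietin receptor and from VE-cadherin. Its young levels were 426, 454 and 457 CPM before, 257, 276 and 213 CPM at 48 and 227, 208 and 196 CPM at 72. All 6 young libraries at 48 and 72 lay below the 3 before, with differences of -0.84 ± 0.18 (adjusted p = 0.000803) and -1.08 ± 0.18 (adjusted p = 0.000280), and both calls held in all 46 alternatives. Old levels were 340.0, 434 and 522 CPM before, 367, 212 and 279 CPM at 48 and 299, 243 and 204 CPM at 72. At 48 the old groups overlapped, and the difference of -0.59 ± 0.18 (adjusted p = 0.0153) became -0.39 ± 0.18 (adjusted p = 0.135) without replicate 2. It was -0.80 ± 0.18 (adjusted p = 0.00355) at 72 and -0.74 ± 0.18 (adjusted p = 0.0170) at 120, and the old calls at all 3 times were lost without old before replicate 3.

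Robo4 (chr9:37401897-37415115, plus strand) encodes an endothelial receptor of the Roundabout family that is known for stabilising vessels. It was 22.5, 19.4 and 19.9 CPM in young libraries before, 9.97, 14.7 and 9.36 CPM at 48 and 13.4, 12.2 and 12.2 CPM at 72. The groups did not overlap, and the differences were -0.86 ± 0.21 (adjusted p = 0.00289) and -0.71 ± 0.21 (adjusted p = 0.0176); the second was lost without young before replicate 1 or young 72 replicate 2. Old libraries held 19.7, 20.8 and 28.1 CPM before, 12.4, 20.9 and 12.3 CPM at 48 and 9.45, 15.1 and 14.3 CPM at 96. At 48 the second library lay among the values before, while the other two lay below them. The old difference at 48 was -0.59 ± 0.20 (adjusted p = 0.0345), and -0.86 ± 0.21 (adjusted p = 0.00560) without that library. Robo4 was also called at 72 (-0.75 ± 0.20, adjusted p = 0.0148), 96 (-0.79 ± 0.21, 0.0195) and 120 (-0.72 ± 0.21, 0.0453), and all 4 old calls were lost without old before replicate 3, its highest library.

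Kdr (chr5:75932827-75978458, minus strand) encodes the main signalling receptor for VEGF on endothelium. Its levels were 137, 151 and 140.4 CPM in young libraries before, 94.6, 107 and 61.4 CPM at 48 and 78.2, 83.1 and 83.7 CPM at 72. The young differences were -0.70 ± 0.24 (adjusted p = 0.0384) and -0.80 ± 0.24 (adjusted p = 0.0226), without overlap. Old libraries held 112, 136 and 160.4 CPM before, 101, 28.8 and 78.5 CPM at 48 and 93.0, 77.0 and 72.7 CPM at 72. The second old library at 48 was the lowest of all 36, and without it the difference moved from -0.97 ± 0.25 (adjusted p = 0.00510) to -0.57 ± 0.18 (adjusted p = 0.0291). At 72 it was -0.75 ± 0.24 (adjusted p = 0.0421). The old call at 72 was lost in 16 of 46 alternatives, among them without any 1 of the old libraries at 72 and without old before replicate 2 or 3. The young calls of Kdr were lost without 5 single libraries at 48 and 4 at 72.

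The other receptors fell at fewer times. Flt4, the VEGF receptor best known from lymphatic vessels and also present in sinusoids (chr11:49609263-49652739, plus strand), went from 77.8, 79.6 and 64.2 CPM to 51.1, 54.7 and 49.1 CPM in young livers at 72 (-0.52 ± 0.15, adjusted p = 0.0166). Tek, the angiopoietin receptor, went from 16.4, 24.6 and 22.5 CPM to 13.2, 12.9 and 14.3 CPM at the same time (-0.65 ± 0.20, adjusted p = 0.0251). In both genes the young libraries at 72 lay below all those before, and the calls of Flt4 and Tek were lost in 6 and 7 of 46 alternatives. Among these, Flt4 was lost without young before replicate 1 or 2 or young 72 replicate 1 or 3. Tek was lost without young before replicate 2 or 3 or young 72 replicate 1 or 2. Eng, the endothelial co-receptor for transforming growth factor beta and bone morphogenetic proteins, went from 88.3, 99.6 and 107 CPM to 73.1, 78.9 and 65.5 CPM in old livers at 72 (-0.44 ± 0.13, adjusted p = 0.0253). The Eng call was lost in 8 of 46 alternatives, among them without old before replicate 2 or 3 and without old 72 replicate 1 or 3. The VEGF receptor Flt1 (23.4 to 59.96 CPM, median 32.8) and the Tek partner Tie1 (14.5 to 30.7 CPM, median 22.8) were called nowhere.

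Promoter sequence is shown for 3 receptors whose levels turned with time or age: Robo4 and Kdr, lower in both ages early in regeneration, and Flt4, lower in old livers on average. Each line holds 250 bases before the start that RefSeq gives, which in all 3 lies downstream of the GENCODE gene start, 5′ to 3′ on the gene's strand, from the RefSeq table on GRCm38.p6, at chr9:37401722-37401971 (plus strand), chr5:75978456-75978705 (minus strand) and chr11:49609429-49609678 (plus strand). Capitals mark AGGAAG, a core bound by ETS factors, in Robo4, and CCCACCC, the reverse complement of GGGTGGG, a core bound by Krüppel-like factors, in Kdr and Flt4.
Robo4: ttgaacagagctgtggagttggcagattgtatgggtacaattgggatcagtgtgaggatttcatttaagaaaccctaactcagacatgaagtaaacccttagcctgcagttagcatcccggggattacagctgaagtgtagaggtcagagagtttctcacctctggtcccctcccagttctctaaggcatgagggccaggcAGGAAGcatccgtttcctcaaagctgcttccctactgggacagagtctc
Kdr: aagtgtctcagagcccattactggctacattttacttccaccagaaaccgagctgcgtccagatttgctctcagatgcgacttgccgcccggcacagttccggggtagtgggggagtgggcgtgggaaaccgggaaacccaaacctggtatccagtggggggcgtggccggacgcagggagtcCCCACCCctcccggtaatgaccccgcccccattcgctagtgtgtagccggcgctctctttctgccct
Flt4: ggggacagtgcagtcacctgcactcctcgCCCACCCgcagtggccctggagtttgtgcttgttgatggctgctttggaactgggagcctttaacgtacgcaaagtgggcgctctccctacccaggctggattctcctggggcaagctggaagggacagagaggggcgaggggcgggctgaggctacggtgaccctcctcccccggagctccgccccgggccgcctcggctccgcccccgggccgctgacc
AGGAAG begins 49 bases before the Robo4 start, and CCCACCC begins 67 bases before the Kdr start and 221 before that of Flt4. Promoters of 21 members were matched in the RefSeq table. Searched on both strands, AGGAAG was found in 11 of the 21 genes and in 32.3% of all 27025 genes, and GGGTGGG in 5 of the 21 and in 17.6% of all. The GATA letters AGATAA were found in 0 of the 21 and 11.4% of all, the SOX letters ACAATG in 1 (Clec4g) and 12.2% of all, and the FOX letters TGTTTAC in 0 and 3.54% of all. The letters describe these windows and show no binding.

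Of the 6 junction and pan-endothelial genes, Cldn5 was called in the most comparisons. It encodes the tight junction claudin typical of endothelium, and in old livers it was 20.7, 21.9 and 22.4 CPM before, 12.2, 5.87 and 8.39 CPM at 48 and 14.0, 16.4 and 7.28 CPM at 72. The old difference was -1.30 ± 0.27 (adjusted p = 0.00124) at 48 and -0.79 ± 0.27 (adjusted p = 0.0487) at 72, and the call at 72 was lost in 34 of 46 alternatives. In young livers it went from 22.3, 16.7 and 20.8 CPM to 11.5, 9.96 and 12.7 CPM at 72 (-0.81 ± 0.27, adjusted p = 0.0386), without overlap, a call lost without any 1 of 5 libraries. Pecam1, the general endothelial adhesion molecule, went from 25.0, 32.8 and 25.7 CPM to 19.9, 18.1 and 17.5 CPM in young livers at 48 (-0.58 ± 0.21, adjusted p = 0.0410). The Pecam1 call was lost in 9 of 46 alternatives, among them without any 1 of the young libraries at 48.

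Cdh5, the gene for VE-cadherin, was called over the young time course as a whole (adjusted p = 0.0336) and at no single time. Its young levels were 63.7, 61.7 and 62.7 CPM before, 49.8, 56.1 and 59.4 CPM at 48, 51.1, 70.5 and 48.4 CPM at 72, 81.0, 74.5 and 82.4 CPM at 96, 77.0, 88.0 and 96.2 CPM at 120 and 53.2, 83.3 and 62.6 CPM at 240. All 3 libraries at 48 lay below the 3 before, and all 6 at 96 and 120 lay above them. The Cdh5 call was lost in 14 of 46 alternatives, among them without any 1 of the young libraries at 48. Nos3, the endothelial nitric oxide synthase, was 8.22, 8.49 and 5.02 CPM in old libraries before and 9.78, 62.2 and 5.93 CPM at 48. Its called difference of 1.84 ± 0.48 (adjusted p = 0.00704), with overlap, rested on the second library: without it the difference was 0.14 ± 0.30 (adjusted p = 0.789). In that library Atg9b, which overlaps Nos3 on the opposite strand, was at 5.06 CPM, and at most 2.11 CPM in the other 35. The adhesion molecule Esam (8.62 to 33.8 CPM, median 12.9) and Egfl7 (20.7 to 48.0 CPM, median 29.8), a secreted protein of endothelium, were called nowhere.

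Among the 3 transcription factors, 1 call was made. Sox18, a SOX factor of endothelium, went from 14.1, 12.1 and 13.5 CPM in old livers before to 9.78, 1.62 and 6.75 CPM at 48, with its lowest value of all libraries in replicate 2. The difference was -1.13 ± 0.33 (adjusted p = 0.0143), and -0.65 ± 0.27 (adjusted p = 0.0965) without that library. Gata4, the factor known to specify sinusoidal endothelium and also expressed in stellate cells, ranged over 20.2 to 48.9 CPM, median 31.9. The related SOX factor Sox17 ranged over 3.27 to 10.4 CPM, median 6.11.

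Among the secreted signals, Wnt9b and Bmp2 moved in opposite directions in young livers. Wnt9b, a Wnt ligand of pericentral endothelium, was 2.08, 1.99 and 3.15 CPM before, 7.03, 5.43 and 6.41 CPM at 48, 8.38, 3.80 and 4.70 CPM at 96 and 7.99, 5.37 and 7.99 CPM at 120. At 48 all 3 libraries were above all 3 before, a 2.62-fold higher level (1.39 ± 0.40, adjusted p = 0.0119), which was not called without young before replicate 1 or 2. At 96 and 120 the differences were 1.24 ± 0.40 (adjusted p = 0.117) and 1.55 ± 0.40 (adjusted p = 0.0685), and in old livers at 48 the difference was 0.96 ± 0.39 (adjusted p = 0.0724). Wnt9b had 7 to 50 counts per library. The other pericentral ligand, Wnt2, ranged over 0.911 to 7.71 CPM, median 4.30, and its difference in young livers at 72 was -1.02 ± 0.39 (adjusted p = 0.0710).

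Bmp2, through which sinusoidal endothelium signals to hepatocytes in iron control, went from 68.4, 78.1 and 60.3 CPM in young livers to 39.1, 42.4 and 39.2 CPM at 48 and 24.5, 39.9 and 40.0 CPM at 72. The groups did not overlap, and the differences were -0.78 ± 0.28 (adjusted p = 0.0466) and -0.99 ± 0.28 (adjusted p = 0.0160). The call at 48 was lost in 26 of 46 alternatives, and the call at 72 without young before replicate 2 or young 72 replicate 1. In old livers Bmp2 was 35.7 to 65.0 CPM before, 56.2, 43.1 and 28.6 CPM at 48 and 48.0, 42.4 and 21.4 CPM at 72, with overlap and differences of -0.33 ± 0.28 (adjusted p = 0.410) and -0.53 ± 0.28 (adjusted p = 0.230).

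Rspo3, an R-spondin that strengthens Wnt signalling, was 7.75, 11.6 and 9.13 CPM in old livers before and 17.3, 18.2 and 12.5 CPM at 48. The old libraries at 48 lay above those before, and the difference of 0.75 ± 0.26 (adjusted p = 0.0331) was 0.67 ± 0.28 (adjusted p = 0.101) without replicate 2. In young livers it was 8.95, 8.95 and 13.6 CPM before and 9.97, 8.02 and 10.6 CPM at 48, a difference of -0.13 ± 0.26 (adjusted p = 0.765). Angpt2, a context-dependent ligand of the angiopoietin receptor, ranged over 2.45 to 10.7 CPM, median 6.48 and was called nowhere.

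**Figure D3:**
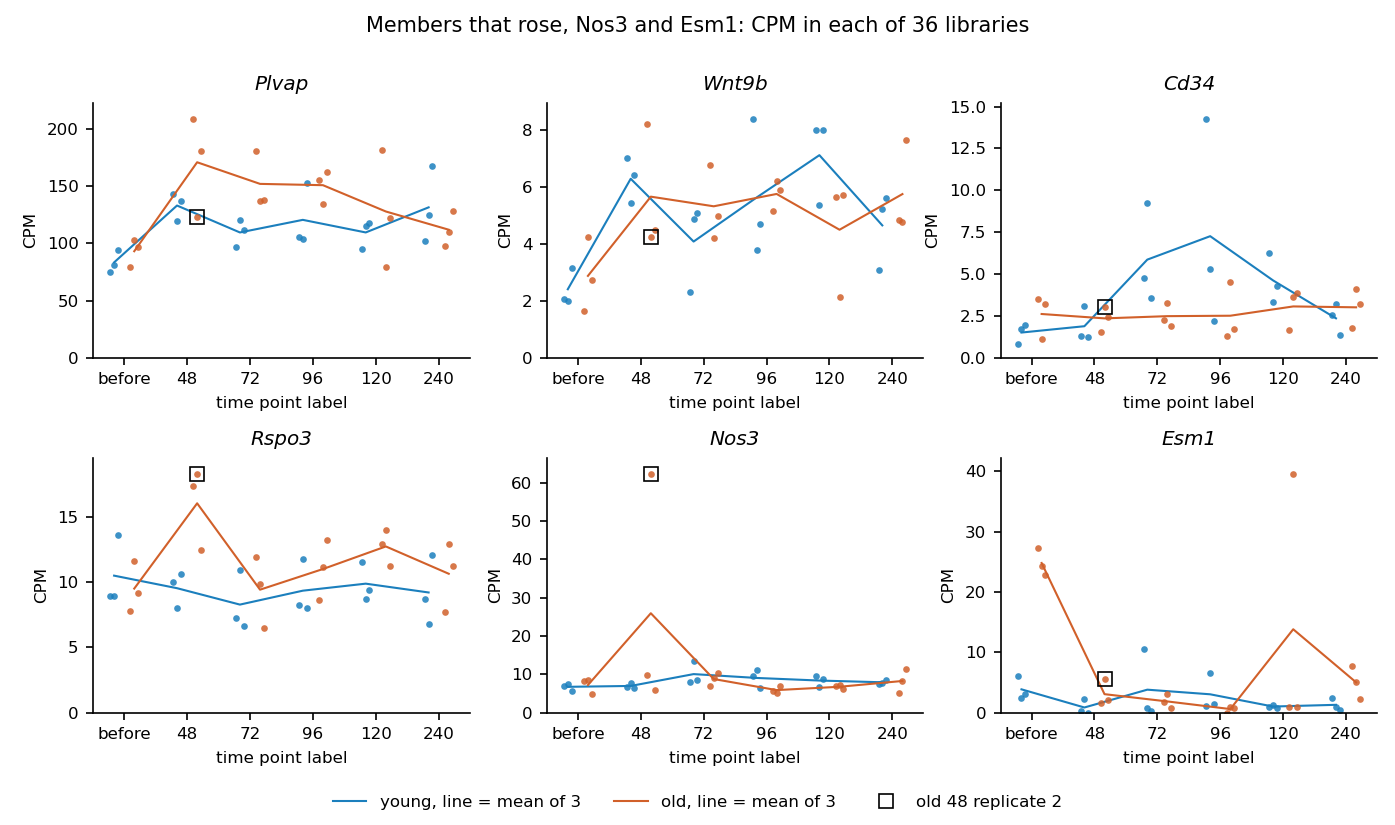
Levels in CPM (vertical axis, from 0) of Plvap, Wnt9b, Cd34, Rspo3, Nos3 and Esm1 in each of the 36 libraries by time label (horizontal axis), young in blue and old in orange, with lines through the means of 3 libraries and an open square for old 48 replicate 2. Plvap is above its levels before regeneration in every library of both ages at 48, Nos3 has 1 library at 62.2 CPM, and Esm1 is high in the 3 old libraries before and in old 120 replicate 2.

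Plvap (chr8:71497765-71511752, minus strand) was the member that rose in both ages. Young libraries held 74.7, 81.3 and 94.2 CPM before and 143, 119.8 and 137 CPM at 48, and old libraries 79.6, 103 and 96.5 CPM before, 209, 124 and 181 CPM at 48 and 181, 137 and 138 CPM at 72. The 48 groups lay above the groups before in both ages, 1.60-fold in young (0.68 ± 0.23, adjusted p = 0.0302) and 1.83-fold in old livers (0.88 ± 0.23, adjusted p = 0.00580). At 72 the old difference was 0.71 ± 0.22 (adjusted p = 0.0378), lost without any 1 of the 6 libraries compared. The young difference at 72 was 0.39 ± 0.23 (adjusted p = 0.239). The young call at 48 was lost without young before replicate 1 or 2 or young 48 replicate 1 or 3. The old call at 48 held without each single library. It was lost without the libraries with Y-linked transcripts and in the fit of only the groups compared.

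Cd34, a marker of ordinary capillaries and larger vessels, rose later in young livers. It was 0.832, 1.74 and 1.94 CPM before, 4.78, 9.24 and 3.56 CPM at 72 and 14.2, 5.32 and 2.21 CPM at 96, with 4 to 8 counts per library before. The later groups did not overlap the group before, and the level was 3.89-fold higher at 72 (1.96 ± 0.59, adjusted p = 0.0215) and 4.96-fold higher at 96 (2.31 ± 0.58, adjusted p = 0.0345). Mesothelial cells, stellate cells and fibroblasts can also carry Cd34, and their markers were summed in the same groups. The 6 mesothelial markers summed to 2.66 to 5.22 CPM in young livers before, 24.2 to 30.9 CPM at 72 and 8.85 to 35.4 CPM at 96, and 5 of the 5 tested rose at 72, none of them at 0 in a library at that time. The 12 stellate cell and fibroblast markers summed to 369.6 to 513, 423 to 1014 and 465 to 1004 CPM, with overlap, and 5 of 12 rose at 72, where 9.21% of all genes were called higher. Their part in the Cd34 difference was not tested. The call at 72 was lost without young before replicate 1 or young 72 replicate 2, and the call at 96 without any 1 of the 3 libraries before or of young 96 replicates 1 and 2. In old livers Cd34 was 3.52, 1.12 and 3.19 CPM before and 2.26, 3.28 and 1.91 CPM at 72, and it was called at no time.

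Esm1, which encodes the secreted proteoglycan endocan of growing vessel tips, was set apart by the old libraries before regeneration. These held 27.2, 24.4 and 22.8 CPM, or 100 to 116 counts, and the young libraries before held 6.03, 2.49 and 3.15 CPM. Old libraries later held 1.56, 5.67 and 2.05 CPM at 48, 1.85, 3.04 and 0.766 CPM at 72, 0, 1.03 and 0.844 CPM at 96 and 0.995, 39.5 and 1.02 CPM at 120. All but old 120 replicate 2 were below the 3 old libraries before. The old differences were -2.98 ± 1.01 (adjusted p = 0.0325), -3.73 ± 1.08 (0.0236) and -5.04 ± 1.28 (0.0175) at 48, 72 and 96. At 96 the counts were 0, 5 and 3, so the size of that fall depends on the prior count. Each of the 3 calls was lost without old before replicate 3. Young levels of Esm1 ranged from 0 to 10.5 CPM with no call, and the difference of old from young before regeneration was 2.65 ± 0.99 (adjusted p = 0.545). Emcn, a mucin of capillary and venous endothelium, had 2 to 17 counts per library and was called nowhere.

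Over the time course as a whole, with the 5 later times tested together, 6 of 37 members were called in young livers, against 21.4% of all genes, and 10 in old livers, against 20.5%. The young calls were Oit3 (adjusted p = 0.000191), Ptprb (0.000292), Cd34 (0.00790), Robo4 (0.0164), Cdh5 (0.0336) and Wnt9b (0.0425). The young count was 3 without young 48 replicate 1 or replicate 3 and 11 without old 48 replicate 2. The old calls were Oit3 (adjusted p = 0.00363), Fcgr2b (0.00563), Nos3 (0.00570), Ptprb (0.00842), Esm1 (0.0107), Cldn5 (0.0128), Robo4 (0.0149), Flt4 (0.0356), Plvap (0.0359) and Kdr (0.0422). The old count was 2 without old before replicate 3. The old call of Nos3 was lost without old 48 replicate 2 (adjusted p = 0.582), and those of Kdr and Flt4 were lost in 28 and 20 of 46 alternatives. At 48 or 72, 7 members were called lower in both ages, namely Cldn5, F8, Fcgr2b, Kdr, Oit3, Ptprb and Robo4, which is 53.8% of the 13 lower in young and 63.6% of the 11 lower in old livers. Over all genes tested, 916 were called lower in both ages at these times, which is 52.8% of the 1736 lower in young and 50.4% of the 1816 lower in old livers, so the members' overlap was near that of all genes.

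Between the ages, averaged over the 6 time points, 2 of 37 members were called, both lower in old livers, where 5.98% of all genes were called and 2.59% were called lower. These were the receptors Tek and Flt4. Tek group means were 13.4 to 21.2 CPM in young and 11.5 to 16.4 CPM in old livers, and the mean difference was -0.38 ± 0.08 (adjusted p = 0.00557), lower in old at 6 of 6 time points. Before regeneration Tek was 16.4, 24.6 and 22.5 CPM in young and 13.4, 17.0 and 18.7 CPM in old libraries, and at 120 it was 18.3, 17.8 and 22.3 and 8.62, 11.5 and 17.6 CPM. Flt4 group means were 51.6 to 73.9 CPM in young and 45.0 to 62.2 CPM in old livers, and the mean difference was -0.26 ± 0.06 (adjusted p = 0.00946), again lower at 6 of 6 time points. At 120, Flt4 was 53.8, 69.5 and 65.7 CPM in young and 51.4, 42.2 and 42.8 CPM in old libraries. Kdr was also lower at 6 of 6 time points, with a mean difference of -0.16 ± 0.10 (adjusted p = 0.376). The call of Tek held in all 45 alternatives run for it, and that of Flt4 was lost only when the 12 libraries with Y-linked transcripts were left out.

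**Figure D4:**
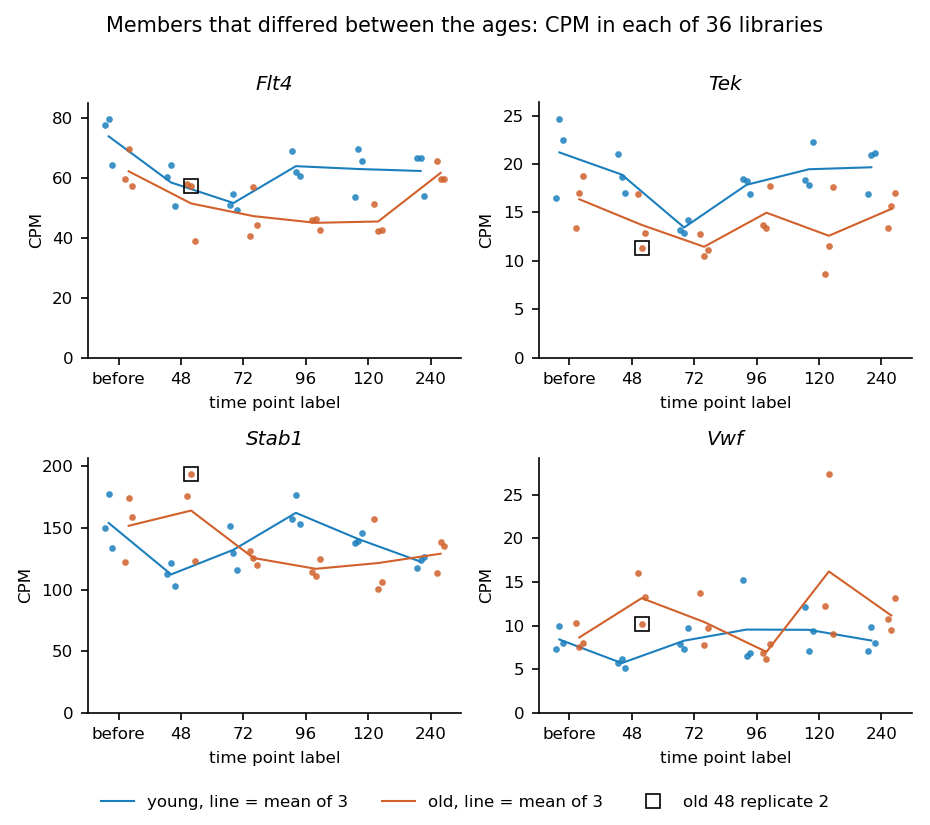
Levels in CPM (vertical axis, from 0) of Flt4, Tek, Stab1 and Vwf in each of the 36 libraries by time label (horizontal axis), young in blue and old in orange, with lines through the means of 3 libraries and an open square for old 48 replicate 2. The old means of Flt4 and Tek lie below the young means at all 6 time labels, and Vwf is higher in all 3 old libraries at 48 than in the 3 young ones.

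At 48, 3 members were called between the ages, all higher in old livers, where 11.2% of all genes were called and 4.42% were called higher. Vwf, the clotting factor carrier stored by endothelium of larger vessels, was 5.72, 6.21 and 5.17 CPM in young and 16, 10.1 and 13.3 CPM in old libraries, a 2.3-fold higher level in old livers (1.20 ± 0.33, adjusted p = 0.0172). The groups did not overlap, and without old 48 replicate 2 the difference was 1.34 ± 0.36 (adjusted p = 0.0254). The call was lost without young 48 replicate 1, young 48 replicate 3 or old 48 replicate 1, and without the 12 libraries with Y-linked transcripts. The highest Vwf level of all libraries was 27.3 CPM, in old 120 replicate 2. Platelets also carry Vwf, and the 8 platelet markers summed to 5.72 to 8.54 CPM in young and 5.32 to 32.2 CPM in old libraries at 48, with the highest sum, 32.2 CPM, in old 48 replicate 2. Itga2b led that sum at 11.1 CPM, and Gp9, Gp1bb and Gp6 were at most 0.889 CPM in the old libraries at 48. The part of platelet RNA in the difference was not tested. Stab1 was 112, 122 and 102 CPM in young and 176, 193 and 123 CPM in old libraries (0.55 ± 0.16, adjusted p = 0.0264), and without old 48 replicate 2 the difference was 0.40 ± 0.17 (adjusted p = 0.217). The Nos3 difference was 1.89 ± 0.49 (adjusted p = 0.0103), with overlap, and 0.15 ± 0.30 (adjusted p = 0.875) without that library. At this time 19 of 20 cell cycle genes were lower in old than in young livers, or 14 without that library. The number of calls at 48 was 1 without old 48 replicate 2, 0 and 1 without young 48 replicates 1 and 3, 8 without old 48 replicate 3, and 5 without young before replicate 3 or young 72 replicate 3. Without the 12 libraries with Y-linked transcripts 0 members were called higher and 2 lower at 48, and the members' median difference went from 0.20 to -0.04.

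At the other times edgeR called 0 members between the ages, where 0.0595% of all genes were called before, 0% at 72, 0.171% at 96, 0% at 120 and 0.0149% at 240. DESeq2 called 0 members at each of these times, and the members with an unadjusted p under 0.05 numbered 3 before, 3 at 72, 5 at 96, 11 at 120 and 2 at 240. At 120 the 11 members were 29.7% of the set, beside 9.83% of all genes, the median difference was -0.33 (old minus young), and 29 of 37 were below 0. These 11 included no call after adjustment over all genes. The age by time interaction, which tests whether the time courses differ between the ages, called 0 members by edgeR and 1 by DESeq2, where 2.76% of all genes were called by edgeR. There 9 members had an unadjusted p under 0.05, and the smallest adjusted p was that of Stab1, at 0.101. The interaction count was 3 without old 48 replicate 3 and 1 without old 120 replicate 1. The age comparisons and the time courses share the same libraries, so the falls called in 1 age and not in the other are not shown to differ between the ages.

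**Figure D5:**
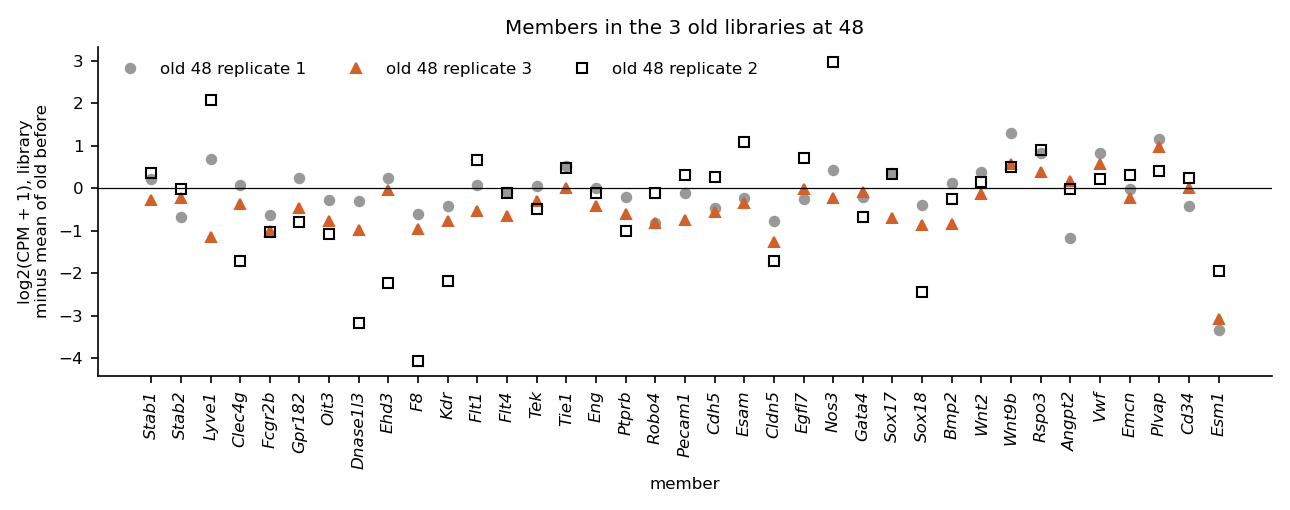
Log2(CPM + 1) of the 37 tested members (horizontal axis) in each of the 3 old libraries at 48, less the mean of the 3 old libraries before regeneration, in log2 units (vertical axis), with old 48 replicate 2 marked separately. Replicate 2 is the lowest library for Dnase1l3, F8, Kdr and Ehd3 and the highest for Nos3, Lyve1, Esam and Flt1.

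In old 48 replicate 2 the members split between the 2 ends of the range. Its lowest values of all 36 libraries included F8 at 6.68 CPM (median of all libraries 89.6 CPM), Dnase1l3 at 7.90 CPM (median 63.8), Ehd3 at 31.6 CPM (median 152) and Kdr at 28.8 CPM (median 104). Its highest included Nos3 at 62.2 CPM (median 7.67), Lyve1 at 140.4 CPM (median 29.2), Esam at 33.8 CPM (median 12.9) and Flt1 at 59.96 CPM (median 32.8). Endothelial genes outside the set also stood apart in that library: thrombomodulin (Thbd) was 434.5 CPM against at most 80.1 CPM elsewhere, and Cd93 was 225 against at most 111 CPM. Its macrophage and monocyte markers summed to 225 CPM, against 471 to 1395 CPM in the other libraries. The cell cycle genes summed to 101 CPM in it, below all others, including those before regeneration, at 105 to 5171 CPM. Wnt receivers and hepatocyte Wnt targets summed to 2267 CPM, against 2403 to 9648 CPM in the others. The cause was not tested.

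Other genes of the same pathways, from lists of ligands, partners, transcription factors and targets, were read from the same fit. In young livers 9.79% of all genes were called lower and 12.2% higher at 48, and 8.21% and 9.21% at 72. In old livers these shares were 12% and 12.1% at 48, and 5.81% and 6.54% at 72. Without old 48 replicate 2, 16.8% of all genes were called in old livers at 48. Counts of 1 gene at 48 in these lists were not above the shares of all genes. Of 11 VEGF and angiopoietin genes tested, 1 fell and 0 rose in young livers at 48: Vegfa, the main VEGF ligand, made largely by hepatocytes in liver (-1.23 ± 0.25, adjusted p = 0.000457). In old livers 4 fell and 1 rose at 48, and Vegfa was among the falls at 48 (-1.01 ± 0.24, adjusted p = 0.00357) and at 72 (-0.99 ± 0.24, adjusted p = 0.00790). Without old 48 replicate 2, 3 fell and 0 rose in old livers at 48. At 72, 1 of these genes (Angpt1) fell in young and 2 (Vegfa and Angpt1) in old livers. Of 13 Notch, apelin, sphingosine and chemokine genes, 1 fell and 0 rose at 48 in each age, and both calls were Dll4, the Notch ligand of arterial and tip endothelium (-1.05 ± 0.29, adjusted p = 0.00926 in young and -1.37 ± 0.29, adjusted p = 0.00120 in old livers). At 72, 1 of the 13 rose in young livers (Notch1), and 2 rose and 1 fell in old livers.

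Of 15 flow, ETS and endothelial transcription factors, 4 fell and 0 rose in young livers at 48 and 7 fell and 1 rose in old livers, or 3 and 0 without old 48 replicate 2. At 72, 4 fell in old livers, and in young livers 2 of the 15 had an unadjusted p under 0.05 and none was called by edgeR. The falls at 48 included Erg, an ETS factor that maintains endothelial identity (-0.81 ± 0.21, adjusted p = 0.00622 in young), and Mef2c (-0.89 ± 0.27, adjusted p = 0.0187 in young and -1.37 ± 0.28, adjusted p = 0.000893 in old livers). Of 29 other endothelial genes, 7 fell and 3 rose in young livers at 48, 7 fell and 4 rose at 72, 8 fell and 6 rose in old livers at 48, and 6 fell and 2 rose at 72. Without old 48 replicate 2, 5 fell and 3 rose in old livers at 48. The falls included the mannose receptor Mrc1, a scavenger receptor that sinusoidal endothelium shares with macrophages (-1.05 ± 0.22, adjusted p = 0.00154 in young at 72 and -1.09 ± 0.22, adjusted p = 0.000712 in old at 48), and Mmrn2, an endothelial matrix protein (-1.01 ± 0.19, adjusted p = 0.000196 in young at 48). The leukocyte adhesion gene Icam1 was among the rises (1.32 ± 0.28, adjusted p = 0.000720 in young at 48 and 1.53 ± 0.28, adjusted p = 0.000502 at 72).

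Targets of the angiocrine signals moved in both directions. Of 24 Wnt receivers and hepatocyte Wnt targets, 4 fell and 2 rose in young livers at 48, and 4 fell and 0 rose at 72. In old livers 8 fell and 2 rose at 48, or 4 and 3 without old 48 replicate 2, and 1 fell and 1 rose at 72. Averaged over time, 4 were lower and 1 higher in old than in young livers, where 5.98% of all genes were called and 2.59% were called lower. Those lower included the pericentral cytochromes Cyp2e1 (-0.63 ± 0.14, adjusted p = 0.00590) and Cyp1a2 (-0.78 ± 0.22, adjusted p = 0.0299). Of 18 receivers and targets of bone morphogenetic proteins, 5 fell and 0 rose in young livers at 48, and 3 fell and 0 rose in old livers, or 2 and 0 without old 48 replicate 2. At 72, 2 fell and 1 rose in young livers, and 2 fell in old livers. Smad9, an intracellular mediator of these signals, was lower in old livers over time (-0.60 ± 0.13, adjusted p = 0.00708). Cd36, a fatty acid and thrombospondin receptor of capillaries and hepatocytes, was higher in old livers over time (0.97 ± 0.14, adjusted p = 5.39e-05), and Tspan7 was lower (-0.32 ± 0.07, adjusted p = 0.00829).

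Markers of other cells were read beside the members' falls. Hepatocyte markers summed to 57093 to 64463 CPM in young livers at 48 and 41693 to 63778 CPM at 72, and macrophage markers to 517 to 711 CPM before, 471 to 669 CPM at 48 and 520.5 to 644 CPM at 72, all overlapping. In old livers macrophage markers summed to 758 to 1027 CPM before and 225 to 747 CPM at 48, without overlap, and 4 of 11 fell at 48. The share of all genes called lower in old livers was 12% at 48 and 5.81% at 72. The 12 markers of T, B and NK cells summed to 49.3 to 66.3 CPM in old livers before, 12.003 to 36.8 CPM at 48, 24.3 to 37.97 CPM at 72, 27.5 to 33.2 CPM at 96 and 31.5 to 46.0 CPM at 120, each below the range before, and 3 of the 4 tested fell at 48 and at 72. Their part in the members' falls was not tested. The 4 lymphatic endothelium markers found in the tables summed to 478 to 484 CPM in young livers before and 530.2 to 625 CPM at 72, and 0 of 3 tested were called at 48 or 72 in either age. That sum was mostly Prox1, which hepatocytes also express, and the lymphatic marker Pdpn was at most 2.51 CPM in any library. Fcgr2b, Lyve1 and Mrc1 are also carried by macrophages or lymphatic vessels, and the part of these cells in their values was not tested.

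The split by Y-linked transcripts, entered as a term after the data were seen, called 1 member, where 8.4% of all genes were called. That was Stab2, at 48.4 ± 11.9 CPM (SD, n = 12) in libraries with Y-linked transcripts and 64.0 ± 10.8 CPM (SD, n = 24) in those without (log2 difference -0.41 ± 0.08, adjusted p = 0.000695). Of the members called against before in either age, 1 of the 13 in old livers at 48 changed sign in the libraries with such transcripts, and none did elsewhere. With such transcripts each sign came from 1 library against 1 library. All these libraries had also given the calls, so the shared signs are no independent check.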

How the data were processed

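The authors deposited raw counts for each gene symbol, whole numbers without normalization, with 1 table per library. The tools and builds named in the submitters' processing notes, with no role or order, include bcl2fastq 2.20.0, Trimmomatic 0.39, FastQC 0.11.9, STAR 2.7.5b, SAMtools 1.10, Picard 2.20.8, featureCounts and GRCm38 (mm10); the annotation used for counting is not given in the sources used here. The authors' counts of the 36 libraries were fitted together with edgeR 4.0.16 in R 4.3.3 (TMM scaling, factors 0.930 to 1.133; filterByExpr on the 12 groups; 1 mean per group; robust quasi-likelihood F test; Benjamini-Hochberg adjustment over 13436 genes). Levels in CPM used TMM-scaled totals. On simulated counts for young 48 against before, with 13212 genes tested, 52% of genes changed 2-fold and 75% of genes changed 4-fold were called, 131 genes were called with 3.05% false calls, and 0 were called between unchanged groups. Only 200 genes were changed there, in young 48 alone, and no library was made to stand apart. In the data 21.9% of all genes were called at young 48, so these rates describe the simulated setting and may not hold for the data. The common biological coefficient of variation was 24.7%.

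All members were accounted for, and values per library were given for those called between the ages and, within each role group, those with the smallest adjusted p over time; from each pathway list at most 3 called genes per comparison were named. The members and lists were chosen with earlier results of these data known. Coordinates, exon lengths and overlaps came from GENCODE M21 on GRCm38, in which all 38 symbols matched, and promoters from RefSeq on GRCm38.p6. Alternatives were other scalings and filters, DESeq2 1.42.0, fits limited to the compared groups, a replicate block, and leaving out each library. For a group set against before, most libraries left out in turn belonged to neither group.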

Additional observations from a re-analysis of the deposited data

Results flagged for a closer look

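Selp, Cyp1a2 and Atoh8, 3 genes of the pathway lists, had time courses that differed between the ages by the interaction test of edgeR's quasi-likelihood fit, and each is given as values only. Selp, the leukocyte adhesion molecule P-selectin of endothelium and platelets, had an interaction adjusted p of 0.0376, with 1.63, 1.55 and 1.97 CPM in young and 5.78, 13.8 and 3.07 CPM in old libraries at 48. The pericentral cytochrome Cyp1a2 had an interaction adjusted p of 0.0320, with 665, 677 and 613 CPM in young and 22.5, 30.2 and 110.5 CPM in old libraries at 48. Atoh8, a transcription factor induced by bone morphogenetic proteins, had an interaction adjusted p of 0.0337, with 19.0, 31.6 and 20.9 CPM in young and 44.9, 53.3 and 42.3 CPM in old libraries at 48. Without old 48 replicate 2 the adjusted p was 0.221 for Selp, 0.156 for Cyp1a2 and 0.0636 for Atoh8. Over 45 alternatives the calls were lost in 16, 8 and 14.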

How the results depend on the processing

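The 72 calls of single members were recomputed under up to 46 alternatives each, 3310 values in all, of which 0 reversed and 417 were no longer called. For the 160 pathway gene results the same held for 0 and 527 of 7341 values. Leaving out the 12 libraries with Y-linked transcripts gave 2 members over the young time course, 2 at young 48, 7 at young 72, 0 at young 96, 5 at old 72, 1 at old 96 and 1 between the ages on average. Fitting only the groups compared gave 16 over the young time course, 4 at young 96 (all lower, with Cd34 not called), 2 at young 120, 1 over the old time course, 1 at old 48, 0 at old 120, 1 between the ages before and 0 at 48. Total-count scaling gave 5 at young 48, 7 at young 72, 1 at young 120, 4 at old 72 and 2 at old 120. No filter on low counts gave 5 at young 48, 5 at old 72 and 2 at old 120. DESeq2 gave 2 at young 96, 1 at young 120 and 1 in the interaction. The Y-linked split as a term, an alternative added after seeing the data, gave 6 at old 96 and 5 between the ages at 48. The causes were not tested.

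Replicate numbers recur in all groups, but same-numbered libraries did not go together: the mean correlation of their deviations from the group means was 0.037 over 45 young pairs, 0.080 over 45 old pairs and 0.053 over 108 pairs across the ages, above 0.1 in 19, 19 and 51. With the number as a replicate block, 5 members were called at old 96 and 4 between the ages at 48, and other counts stayed within 1.5 times.

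Leaving out 1 library at a time gave 3 to 11 members over the young time course, 3 to 10 at young 48, 4 to 14 at young 72, 0 to 3 at young 96 and 0 to 1 at young 120. In old livers it gave 2 to 14 over the time course, 6 to 13 at 48, 1 to 12 at 72, 1 to 5 at 96 and 0 to 7 at 120. Between the ages it gave 2 to 3 on average, 0 to 8 at 48 and 0 to 3 in the interaction. It gave 0 to 0 at young 240, old 240 and between the ages before and at 72, 96, 120 and 240. Depth limited Apln, Emcn, Cd34, Wnt9b, Wnt2, Sox18 and Esm1, which had fewer than 10 counts in some libraries.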
